A study of Mus musculus with 8 samples.

Results

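The 10 genes described here encode the route from cystine uptake to the glutathione and thioredoxin systems, the 2 arms of thiol-based defense against peroxides. They are Slc7a11, Slc3a2, Gclc, Gclm, Gss, Gsr, Gpx1, Gpx4, Txnrd1 and Srxn1. They were found by gene symbol among the 13387 genes of the count table, and all 10 were present and passed the filter on low counts. The genes were chosen with the differences between these same libraries already known, so their differences and calls are given as a description, with no p-value and no weight as evidence. The measurements were bulk RNA-Seq counts from primary bone marrow cells of C57BL/6 mice aged 8 to 12 weeks. One group of 4 libraries held megakaryocytes (MKs, the platelet-forming cells) cultured alone for 18 hours, and the other group of 4 held MKs recovered after 18 hours on mesenchymal stromal cells (MSCs). MKs had been enriched from marrow with magnetic beads for CD41, MSCs had been sorted as CD45-Ter119-CD31-CD51+CD140a+ cells, and both groups received thrombopoietin at 50 ng/mL. Neither group carried a genetic change, and each library was pooled from 5 wells. The labels call the sequenced cells MKs separated from platelets, while the methods of the study speak of platelets for the RNA-Seq, and the values below are given as those of the labelled MK libraries.

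Slc7a11 (xCT) pairs with Slc3a2 (4F2hc, CD98) in the antiporter that brings cystine into the cell in exchange for glutamate. Cystine is reduced to cysteine, which glutamate-cysteine ligase (catalytic subunit Gclc, modifier subunit Gclm) joins to glutamate before glutathione synthetase (Gss) adds glycine. Glutathione peroxidases spend glutathione on peroxides, glutathione reductase (Gsr) regenerates it with NADPH, and thioredoxin reductase (Txnrd1) and sulfiredoxin (Srxn1) serve the parallel thioredoxin and peroxiredoxin system. Peroxides also act as signals in platelet activation, which is one reason these enzymes are followed in the MK lineage. Many of the genes are known targets of the transcription factors NRF2 and ATF4, and BACH1 is a repressor that competes with NRF2 at the same DNA element.

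The libraries held 4939874 to 12523616 counts, and 3 counts corresponded to 0.28 to 0.66 CPM (counts scaled to library size with TMM factors). Coculture replicate 3 stood apart, with 10735 genes detected against 13104 to 13193 in the other cocultures, and 1012 genes at 0 there that had at least 10 counts in every other library. Among the cocultures it gave the highest value for 9 of the 10 genes, against 38.9% of all 11722 genes tested, so the log2 fold change without it is given for each of the 10 genes, and for other named genes the coculture mean without it where that mean moved by more than 1.5 times. MK and platelet markers were detected for 15 of 15 genes and summed to 2382 to 2637 CPM alone and 1834 to 2353 CPM in coculture. Neutrophil markers summed to 84445 to 86285 CPM alone and 4350 to 10202 CPM in coculture, with 11 of 11 genes called lower, and 4 of 8 B cell markers were also called lower. Macrophage markers summed to 173 to 234 CPM alone and 1155 to 1592 CPM in coculture, with 10 of 11 called higher. MSC markers summed to 64.1 to 88.5 CPM alone and 1264 to 4138 CPM in coculture, with 7 of the 10 in the table called higher, and Cxcl12, Lepr, Col1a1 and Col3a1 at 3 counts or fewer in every library of MKs alone. Erythroid markers summed to 38.8 to 62.8 CPM alone, 19.6 to 22.7 CPM in cocultures 1, 2 and 4 and 93.8 CPM in coculture replicate 3. The part of these other cells in the values below was not tested, and fewer cells of a type and less RNA per cell cannot be told apart in bulk libraries.

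A gene was called when it differed at least 2-fold with an adjusted p of at most 0.05 in edgeR's quasi-likelihood test and averaged at least 1 CPM in a group. Slc7a11, Gclm and Gsr were called lower in coculture, which is 3 of 10 against a background of 7.31% of all genes tested. Gss and Srxn1 were called higher, 2 of 10 against a background of 13.2%. The values of the 2 groups did not overlap for 7 of the 10 genes (those 5, Gpx4 and Txnrd1), against 40.3% of all genes tested. Since the genes were selected on this comparison, nothing is read from these shares. The 5 calls were the same without coculture replicate 3. Of the 10 log2 fold changes (coculture over alone), 6 were positive and 4 negative, and the median was 0.60 against 0.03 for all genes tested.

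**Figure D1:**
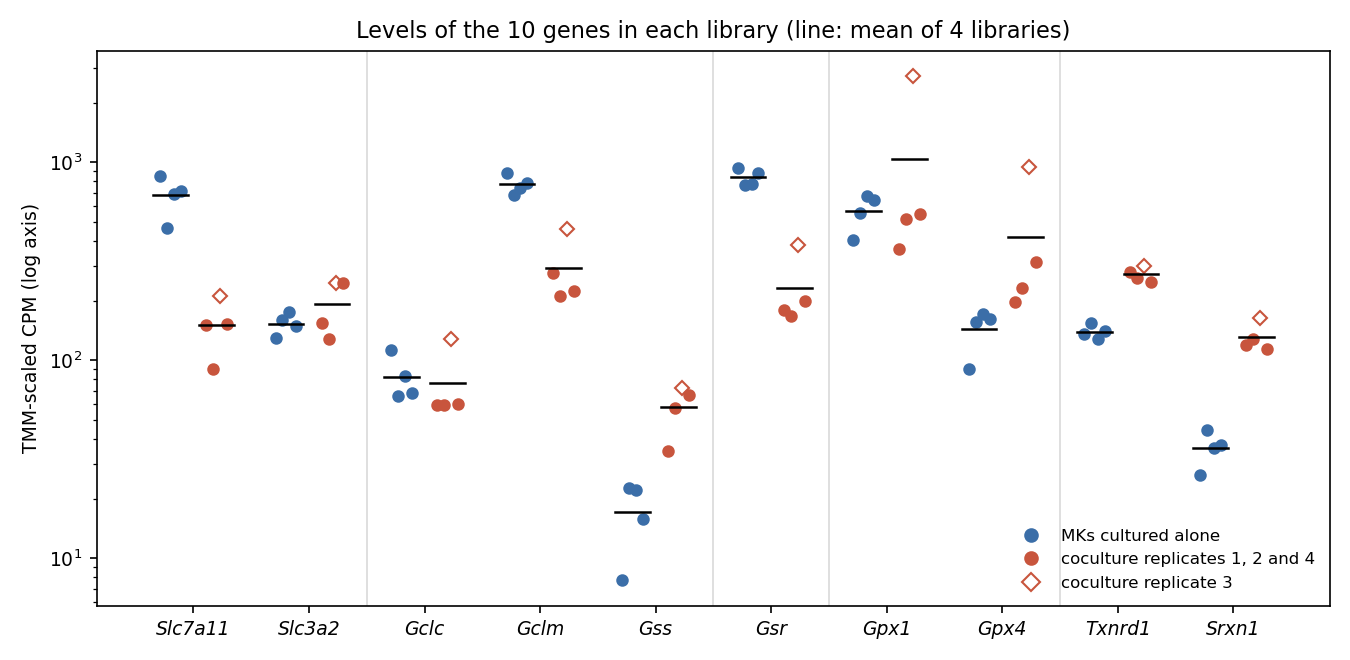
TMM-scaled CPM (log axis) of the 10 genes in each of the 8 libraries, from cystine import on the left to sulfiredoxin on the right. Blue points are MKs cultured alone, red points cocultured MKs, the open diamond coculture replicate 3, and lines the group means. Slc7a11, Gclm and Gsr lie lower in every coculture, Gss, Gpx4, Txnrd1 and Srxn1 lie higher, and the diamond is far above the other cocultures for Gpx1 (2723 CPM) and Gpx4 (944 CPM).

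Slc7a11, the cystine-specific subunit (GRCm38 chr3:49892526-50443614, minus strand), carried 848, 464, 689.5 and 716 CPM in MKs cultured alone. It carried 151, 89.9, 211 and 152 CPM in cocultured MKs. The groups were far apart, the lowest MK-alone value being more than the highest coculture value. The means were 679.6 ± 159.6 CPM alone and 151 ± 49.6 CPM in coculture (SD, n = 4 each), a log2 fold change of -2.17 ± 0.30 (SE), or 4.50-fold lower. Leaving out coculture replicate 3 gave -2.40 ± 0.24. In MKs alone its mean CPM exceeded that of 98.7% of the genes tested, and in coculture that of 88.8%.

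The promoter of Slc7a11 is shown because it was the only one among the 8 matched genes of the group to hold the core of the amino acid response element, the motif bound by ATF4. The motif was searched as TGATGNAA on both strands of the 250 bases before each RefSeq start in GRCm38.p6, and it was present in 3.45% of 32841 promoters. Slc7a11 held it on each strand of chr3:50443627-50443705, with the matches in capitals and the sequence written along the gene's own strand. A match describes these letters and is not evidence of binding.
Slc7a11: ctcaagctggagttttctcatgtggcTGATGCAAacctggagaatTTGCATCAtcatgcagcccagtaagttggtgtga

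Slc3a2, the shared heavy chain that also anchors other amino acid transporters (chr19:8706882-8723369, minus strand), measured 129, 159, 175 and 148 CPM in MKs alone and 154, 127, 245 and 246 CPM in coculture. The groups overlapped, and cocultures 3 and 4 were above all other libraries. Slc3a2 was not called, with a log2 fold change of 0.34 ± 0.25, or 0.18 ± 0.21 without coculture replicate 3. Per kilobase of exon, the ratio of Slc7a11 to Slc3a2 within a library was 1.66, 0.741, 0.999 and 1.22 in MKs alone and 0.248, 0.179, 0.219 and 0.157 in coculture. This ratio does not depend on library scaling, and no coculture reached the lowest MK-alone value. The annotated exons of Slc7a11 together span 13.9 kb, so its level per kilobase depends on how much of that length the cells use.

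In the first step of glutathione synthesis the subunits of glutamate-cysteine ligase differed from each other. Gclc (chr9:77754535-77794485, plus strand) measured 113, 66.1, 83.3 and 68.3 CPM in MKs alone, and 59.5, 59.7, 128 and 60.2 CPM in coculture. Cocultures 1, 2 and 4 lay within 1 CPM of each other, just below the lowest MK-alone value, while coculture replicate 3 was above every other library. Its log2 fold change was -0.10 ± 0.33 with all libraries and -0.48 ± 0.20 without coculture replicate 3, and Gclc was called in neither.

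Gclm (chr3:122245557-122270732, plus strand) measured 879, 681, 740.2 and 787 CPM in MKs alone, and 275, 212, 457 and 224 CPM in coculture. All 4 cocultures were below all 4 MK-alone libraries, with coculture replicate 3 nearest to them. This was a log2 fold change of -1.40 ± 0.27, or 2.64-fold lower, and -1.72 ± 0.18 without coculture replicate 3. The ratio of Gclm to Gclc per kilobase was 4.66, 6.17, 5.32 and 6.90 in MKs alone and 2.77, 2.13, 2.14 and 2.23 in coculture. Coculture replicate 3 was within the range of the other cocultures for this ratio although both genes were highest in it.

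The promoter of Gclm is shown because it held the core of the antioxidant response element, the motif shared by NRF2 and BACH1. That core was searched as TGACNNNGC on both strands and was present in 10.2% of all promoters. Among the 8 matched genes of the group Gclm and Txnrd1 held it. Gclc and Gsr had no promoter sequence in the set used and were not searched for either motif. In Gclm it lay on the opposite strand of chr3:122245397-122245457, and the capitals mark it in a sequence written along the gene's strand.
Gclm: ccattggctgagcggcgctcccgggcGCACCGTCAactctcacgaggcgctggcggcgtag

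Gss (chr2:155563181-155592810, minus strand), the enzyme of the second step, had the lowest level per kb of the 10 in MKs alone. It measured 7.72, 22.6, 22.2 and 15.8 CPM there, from 35 to 219 counts, and 34.9, 57.6, 72.6 and 66.4 CPM in coculture. MK-alone replicate 1 was the lowest library, and the groups did not overlap. The log2 fold change was 1.76 ± 0.41, or 3.38-fold higher, and 1.58 ± 0.30 without coculture replicate 3. The call was lost when MK-alone replicate 4 was left out. Thus the modifier subunit and the synthetase moved in opposite directions, and Gclc, between them in size of change, was not called.

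Gsr, the NADPH-dependent reductase that returns oxidized glutathione to its reduced form (chr8:33652523-33698163, plus strand), was the member with the narrowest MK-alone range among the 3 called lower. It measured 937, 766, 777 and 886 CPM in MKs alone. Its values in coculture were 179.6, 167, 379.5 and 198 CPM, all below the MK-alone libraries. Gsr was thus 3.64-fold lower, a log2 fold change of -1.86 ± 0.29. Without coculture replicate 3 it was -2.23 ± 0.18, and Gsr then averaged 182 ± 15.7 CPM (SD, n = 3) in coculture.

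Gpx1, the main cytosolic and mitochondrial peroxidase for hydrogen peroxide (chr9:108338903-108340343, plus strand), measured 405, 552, 672 and 644 CPM in MKs alone and 365, 514, 2723 and 547 CPM in coculture. One library set its coculture mean of 1037 ± 1127 CPM (SD, n = 4). The log2 fold change was 0.87 ± 0.61 with all libraries and turned to -0.28 ± 0.21 without coculture replicate 3. Gpx1 was called in neither, and the groups overlapped.

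Gpx4, the peroxidase that reduces lipid hydroperoxides within membranes and so restrains ferroptosis (chr10:80047166-80056439, plus strand), measured 90.3, 157, 170.2 and 161 CPM in MKs alone and 197, 231, 944 and 312 CPM in coculture. Every coculture was above every MK-alone library, and replicate 3 was again the highest by far. The log2 fold change fell from 1.54 ± 0.51 with all libraries to 0.75 ± 0.22 without coculture replicate 3, and Gpx4 was called in neither. The ratio of Gpx1 to Gpx4 per kilobase was 5.36, 4.22, 4.72 and 4.79 in MKs alone and 2.22, 2.66, 3.45 and 2.10 in coculture, with no overlap.

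**Figure D2:**
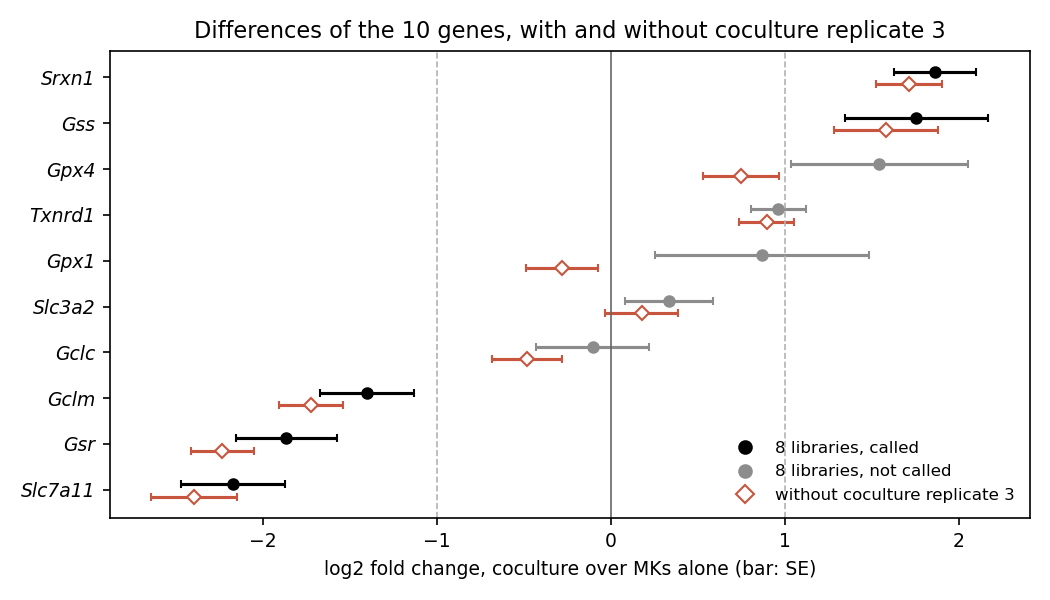
Log2 fold change (coculture over MKs alone, TMM scaling) with its SE for the 10 genes. Filled circles use all 8 libraries (black where called, gray where not), open red diamonds leave out coculture replicate 3, and dashed lines mark a 2-fold difference. Gpx1 goes from 0.87 to -0.28 and Gpx4 from 1.54 to 0.75 when that library is left out, while Slc7a11, Gclm and Gsr move further below 0 (under scaling to MK and platelet markers Gclm is at 0.31 and Gclc at 1.64).

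Txnrd1, the cytosolic selenoenzyme that reduces thioredoxin (chr10:82833951-82897712, plus strand), had the tightest values of the group. MKs alone gave 136, 154, 127 and 141 CPM, and cocultures gave 279.8, 259, 298 and 249.6 CPM. The groups did not overlap, and coculture replicate 3 was the highest by a small margin. At 1.95-fold higher, a log2 fold change of 0.96 ± 0.16, Txnrd1 was just under the 2-fold limit and was not called, and without coculture replicate 3 the value was 0.90 ± 0.16. Txnrd1 has 3 RefSeq starts in the table used, and the second held the antioxidant response element core on the opposite strand of chr10:82859088-82859148, in capitals here for comparison with the Gclm sequence above.
Txnrd1: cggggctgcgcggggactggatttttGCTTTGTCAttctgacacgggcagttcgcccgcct

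Srxn1, which rescues peroxiredoxins whose catalytic cysteine has been over-oxidized (chr2:152105516-152111376, plus strand), measured 26.3, 44.3, 36.0 and 37.1 CPM in MKs alone. It measured 119, 128, 163 and 113 CPM in coculture, where each library was above the highest MK-alone value. The log2 fold change was 1.86 ± 0.24, or 3.63-fold higher, and 1.71 ± 0.19 without coculture replicate 3. The ratio of Srxn1 to Gclm per kilobase, which compares 2 known NRF2 targets, was 0.0667, 0.145, 0.109 and 0.105 in MKs alone and 0.964, 1.35, 0.792 and 1.13 in coculture.

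The directions above hold under TMM scaling and depend in part on it. Scaling the libraries to the MK and platelet markers raised the median over all tested genes from 0.03 to 1.26 in log2 units, and 1 of those markers, Gp6, was at 0 in coculture replicate 3. Relative to that median, Slc7a11 was at -1.83, Gsr at -1.38 and Gclm at -0.95, while Gss was at 2.06, Srxn1 at 2.16 and Gpx4 at 2.33. Before subtracting the median, Gclm was at 0.31 and Gclc at 1.64, and the calls of Slc7a11, Gclm and Gsr were lost.

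Levels per kilobase of exon put the 10 genes on one scale. In MKs alone the order of mean CPM per kb was Gpx1 (394), Gsr (305), Gclm (123), Gpx4 (83.8), Slc7a11 (48.8), Slc3a2 (43.3), Gclc (22.0), Txnrd1 (19.7), Srxn1 (12.7) and Gss (2.88). Neighbors whose libraries overlapped were Gpx1 and Gsr, Gpx4 and Slc7a11, Slc7a11 and Slc3a2, and Gclc and Txnrd1. In coculture the order was Gpx1 (719.9), Gpx4 (244), Gsr (83.9), Slc3a2 (54.7), Gclm (46.4), Srxn1 (46.4), Txnrd1 (38.3), Gclc (20.4), Slc7a11 (10.8) and Gss (9.78). Here Txnrd1 over Gclc and Gclc over Slc7a11 were the only neighbors whose libraries did not overlap. Compared within each library, Gpx1 over Gpx4, Gpx4 over Gsr, Gsr over Slc3a2 and Srxn1 over Txnrd1 also held in all 4 cocultures. Slc3a2 over Gclm, Gclm over Srxn1 and Slc7a11 over Gss held in 2 of the 4. Leaving out coculture replicate 3 lowered the coculture mean of Gpx1 to 329.8, below that of MKs alone, and that of Gpx4 to 143, and it put Srxn1 (42.6) above Gclm (37.7) while the other ranks stayed. Slc7a11 thus ranked 5 of 10 in MKs alone and 9 of 10 in coculture.

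Gsr made up a smaller share of the group in coculture and Gpx4 a larger one. As a share of the summed level per kb of the 10 genes, Gsr went from 29.1% ± 4.20 to 7.94% ± 2.30 and Gpx4 from 7.89% ± 1.70 to 19.1% ± 1.50 (SD, n = 4 each). Gclm went from 11.7% ± 1.81 to 4.55% ± 1.80, and Slc7a11 from 4.64% ± 1.22 to 1.10% ± 0.51. Within each library the ratio of Gsr to Txnrd1, the reductases of the 2 arms, was 17.8, 12.8, 15.7 and 16.2 in MKs alone and 1.65, 1.66, 3.28 and 2.04 in coculture. The ratio of Gpx4 to Gsr was 0.154, 0.326, 0.350 and 0.290 in MKs alone and 1.75, 2.21, 3.97 and 2.52 in coculture. No library of one group reached the other in either ratio, coculture replicate 3 included.

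**Figure D3:**
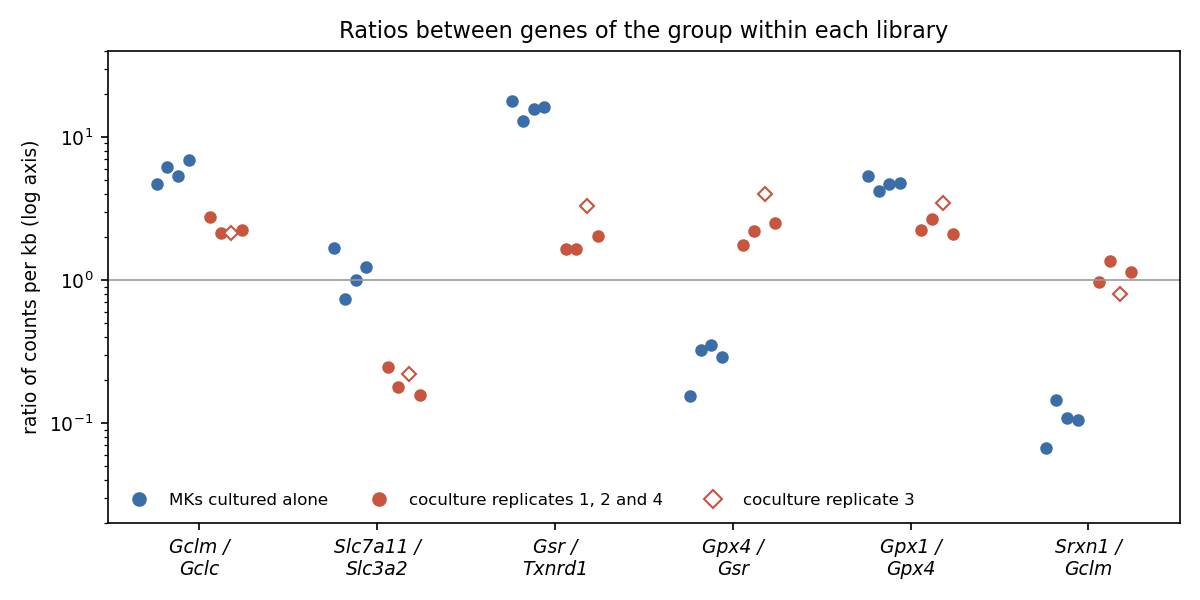
Ratios between genes of the group within each library, as counts per kb of exon (log axis), for 6 pairs. Blue points are MKs alone, red points cocultures and the open diamond coculture replicate 3, and the gray line marks equal levels. No ratio overlaps between the groups, and Gpx4 over Gsr crosses from 0.154 to 0.350 in MKs alone to 1.75 to 3.97 in coculture.

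The genes whose 8-library profile was most like that of Slc7a11 were Kdm7a (root mean square difference 0.18 in log2 units around each gene's mean), Gm5483 (0.20) and Bach1 (0.23), among 9046 genes compared. For Gsr they were Alox5ap (0.17), Zfp773 (0.18) and Gm5483 (0.20). Each of these was likewise lower in every coculture than in any MK-alone library. That follows from choosing them by profile and is not a separate result.

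The other genes of the pathway were set out in 10 lists by role, 181 genes of which 162 could be tested. By edgeR's quasi-likelihood test 43 of the 162 were called higher and 12 lower in coculture, that is 26.5% and 7.41% against the 13.2% and 7.31% of all genes tested. Their median log2 fold change was 0.55. The lists were chosen with earlier results of these data known, so these shares and the adjusted p-values below are given as a description. Without coculture replicate 3 the counts were 54 higher and 20 lower, or 33.3% and 12.3%, where 20.6% and 15.4% of all genes tested were called in the respective direction. When libraries were scaled to MK and platelet markers the counts were 65 and 2, or 40.1% and 1.23%. Over all genes tested the shares under that scaling were 24.2% and 2.77%. Among the genes named by the rule given with the methods, Txnip, Nadk2, Bach1, Sephs2 and Alox5 then lost their calls and Hmox1 gained one.

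**Figure D4:**
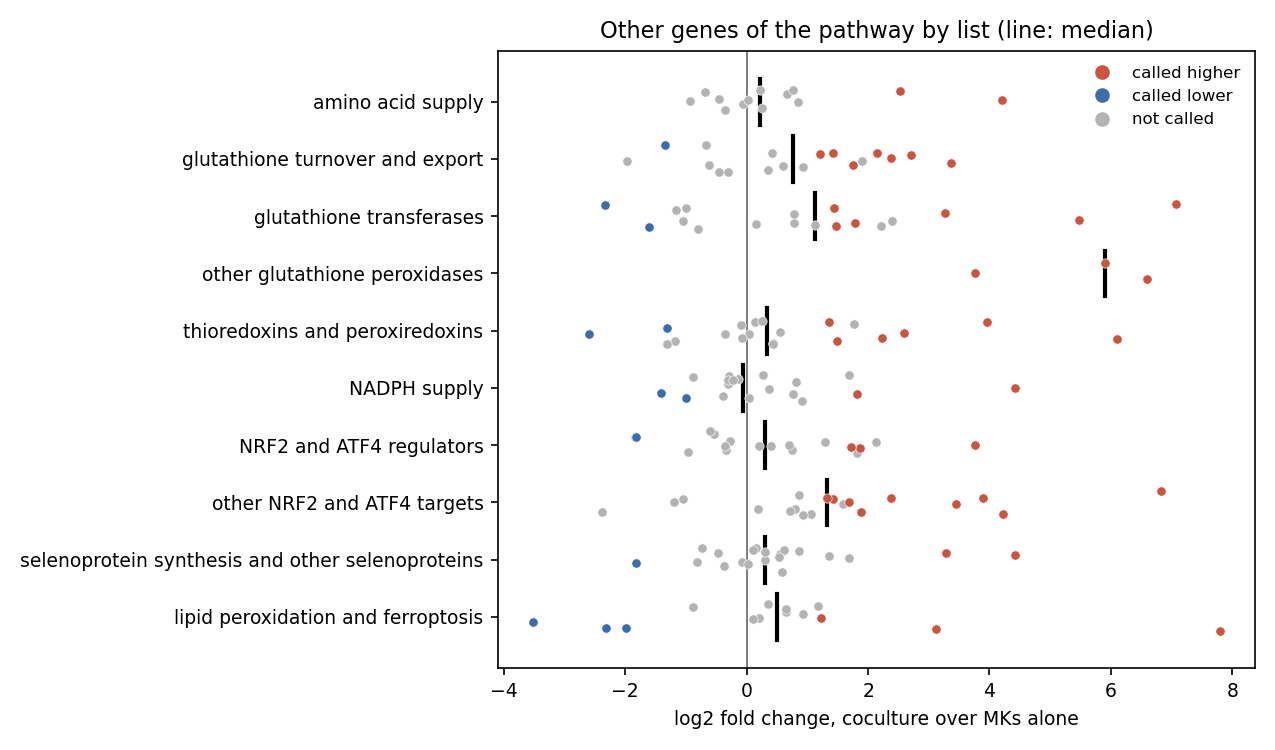
Log2 fold change (coculture over MKs alone, TMM scaling) of the 162 tested pathway genes outside the group, by list. Red points were called higher, blue points lower and gray points not called, and black lines are medians. The 3 other glutathione peroxidases are all red, and the NADPH list has 2 red and 2 blue points around a median of -0.06.

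Among genes of amino acid supply, 2 of 13 tested rose and 11 were not called. Bcat1, a branched-chain aminotransferase that yields glutamate, rose from 6.91 ± 3.79 to 129 ± 17.2 CPM (SD, n = 4 each), a log2 fold change of 4.21 ± 0.41. Slc7a5, the other best-known partner of Slc3a2, measured 45.4 ± 8.92 CPM alone and 53.1 ± 22.5 CPM in coculture, with an adjusted p of 0.69 by edgeR. So neither Slc3a2 nor Slc7a5 was called while Slc7a11 was called lower.

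In glutathione turnover and export 7 of 18 genes rose and 1 fell. Esd, which hydrolyzes S-formylglutathione, rose from 323 ± 56.0 to 1679.9 ± 923 CPM (log2 fold change 2.38 ± 0.36). Slc25a39, the carrier that brings glutathione into mitochondria, was at 36.0 ± 11.0 CPM alone and 235 ± 243 CPM in coculture, or 115 ± 33.4 CPM without coculture replicate 3, and its call was lost when any one MK-alone library was left out. Oplah, the 5-oxoprolinase of glutathione breakdown, lost its call in the same way, and its coculture mean went from 14.7 to 5.17 CPM without coculture replicate 3.

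Glutathione transferases were split, with 6 of 19 higher and 2 lower. The 2 called lower were Mgst1 (601 CPM on average in MKs alone, log2 fold change -1.61) and Mgst2 (47.8 CPM, -2.34). Both were called lower without coculture replicate 3 as well. The 3 genes with the largest changes were all higher in coculture and had lower levels in MKs alone than these. Gstm2 rose from 1.26 ± 0.54 to 57.7 ± 26.1 CPM (log2 fold change 5.47 ± 0.51), and Hpgds, the hematopoietic prostaglandin D synthase, from 6.27 ± 3.98 to 59.8 ± 35.0 CPM (3.27 ± 0.57). Gsta3 had at most 3 counts in each MK-alone library and 5.38 to 72.6 CPM in coculture, where replicate 3 gave the highest value and the mean without it was 7.31 CPM.

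All 3 other glutathione peroxidases that could be tested rose. Gpx3, the secreted form, went from 12.4 ± 3.13 to 168 ± 62.7 CPM (log2 fold change 3.76 ± 0.35, adjusted p = 0.00013 by edgeR). Gpx8, an enzyme of the endoplasmic reticulum, measured 3.75, 1.75, 0.998 and 1.79 CPM in MKs alone and 272, 251, 44.3 and 208 CPM in coculture. Gpx7, also of the endoplasmic reticulum, had at most 3 counts in each MK-alone library and 6.94 to 18.8 CPM in coculture. Among the cocultures, replicate 3 was the lowest for Gpx8 and the highest for Gpx3 and Gpx7.

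Of thioredoxins, peroxiredoxins and related genes, 6 of 20 rose and 2 fell. Prdx1, the cytosolic peroxiredoxin that Srxn1 repairs, measured 781, 826, 814 and 685 CPM in MKs alone and 9395, 9513, 22937 and 6408 CPM in coculture, a log2 fold change of 3.96 ± 0.42 (adjusted p = 0.00027 by edgeR). Without coculture replicate 3 the coculture mean was 8439 CPM. Txn1, the substrate of Txnrd1, was at 543 ± 48.7 CPM alone and 512 ± 192 CPM in coculture and was not called (adjusted p = 0.85 by edgeR). Txnip, which binds and inhibits thioredoxin, fell from 119.7 ± 11.9 to 48.3 ± 9.66 CPM (log2 fold change -1.31 ± 0.22). Among methionine sulfoxide reductases, Msrb3 rose from 1.85 ± 0.76 to 126 ± 65.1 CPM and Msra fell from 128 ± 19.3 to 21.2 ± 13.3 CPM, the latter call being lost without MK-alone replicate 2.

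NADPH supply, on which Gsr and Txnrd1 both draw, had 2 of 18 genes higher and 2 lower. G6pdx, the entry enzyme of the pentose phosphate pathway, was at 274 ± 60.9 CPM alone and 208 ± 27.8 CPM in coculture and was not called (adjusted p = 0.21 by edgeR). Me1, cytosolic malic enzyme, rose from 5.83 ± 1.62 to 124 ± 37.0 CPM (log2 fold change 4.41 ± 0.36). Nadk2, the mitochondrial NAD kinase, fell from 122 ± 46.9 to 46.1 ± 9.30 CPM (log2 fold change -1.40 ± 0.31, or 0.11 when scaled to MK and platelet markers). Mthfd1, of cytosolic folate metabolism, was called higher with all 8 libraries at 81.5 ± 68.8 against 23.1 ± 2.58 CPM, at 47.3 CPM in coculture without replicate 3, and its call was lost when any one MK-alone library was left out.

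Among the regulators 3 of 18 genes rose and 1 fell. Nfe2l2, which encodes NRF2, was at 235 ± 53.7 CPM alone and 194 ± 39.0 CPM in coculture (adjusted p = 0.44 by edgeR), and Keap1, its cytosolic anchor, was at 39.9 ± 9.60 and 67.2 ± 45.5 CPM, or 44.7 CPM in coculture without replicate 3 (adjusted p = 0.26 by edgeR with all libraries). Atf4 was at 93.1 ± 10.2 and 73.1 ± 19.4 CPM (adjusted p = 0.34 by edgeR). Bach1, the repressor, fell from 66.2 ± 19.7 to 18.7 ± 5.85 CPM (log2 fold change -1.82 ± 0.35), and Sqstm1, the autophagy receptor that binds KEAP1, rose from 577 ± 43.1 to 1909 ± 940.2 CPM (1.73 ± 0.36). Nfe2l1, a relative of NRF2, rose from 46.1 ± 4.80 to 168 ± 102 CPM. Regulators were thus measured at the transcript level only, and the amount or location of their proteins was not.

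Other known targets of NRF2 and ATF4 had 9 of 19 genes higher and 10 not called with all libraries, and 11 higher and 2 lower without coculture replicate 3. Nqo1, a quinone reductase and standard NRF2 target, measured 16.1, 18.6, 21.0 and 21.5 CPM in MKs alone and 46.1, 43.6, 81.5 and 35.2 CPM in coculture (adjusted p = 0.016 by edgeR). The Nqo1 call was lost when any one MK-alone library was left out. Ephx1, microsomal epoxide hydrolase, rose from 7.53 ± 1.22 to 112 ± 57.2 CPM, and Cbr3, a carbonyl reductase, from 0.793 ± 0.487 to 15.4 ± 10.5 CPM, or 10.2 CPM in coculture without replicate 3. Akr1b8, an aldo-keto reductase, measured 0 to 1.13 CPM in MKs alone and 38.0 to 114 CPM in coculture. Hmox1, which encodes heme oxygenase 1, was at 176 ± 34.7 CPM alone and 369 ± 239.8 CPM in coculture and was not called (adjusted p = 0.10 by edgeR). Gclm and Gsr, which are commonly grouped with the same targets, were lower under TMM scaling, with the dependence on scaling given above.

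Gpx1, Gpx4 and Txnrd1 are selenoproteins, and of 20 other genes of that class and its synthesis machinery 2 rose and 1 fell. Sephs2, which makes the selenium donor for selenocysteine, fell from 281 ± 21.1 to 79.4 ± 5.85 CPM (log2 fold change -1.82 ± 0.16, adjusted p = 9.9e-05 by edgeR). Selenom rose from 2.60 ± 0.62 to 56.3 ± 32.5 CPM. Selenow was called higher with all libraries, at 155 ± 188 against 15.9 ± 6.02 CPM, at 61.4 CPM in coculture without replicate 3, and its call was lost without MK-alone replicate 1 or 2.

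In lipid peroxidation and ferroptosis, the process that cystine import, glutathione and Gpx4 restrain, 3 of 14 genes rose and 3 fell. Ptgs2, prostaglandin synthase 2, measured 0 to 1.32 CPM in MKs alone and 67.4 to 217 CPM in coculture. Aifm2, which encodes the glutathione-independent suppressor FSP1, rose from 3.31 ± 1.54 to 28.9 ± 25.6 CPM, or 16.2 CPM in coculture without replicate 3, and its call was lost without MK-alone replicate 1. Alox5, a lipoxygenase of leukocytes, was called lower at 125 ± 20.4 against 25.2 ± 16.3 CPM (adjusted p = 0.049 by edgeR), and that call was lost when any library other than coculture replicate 3 was left out. Also called lower were Ncoa4 (1040 CPM on average in MKs alone, log2 fold change -1.98) and Alox15 (6.65 CPM, -3.53). Both were called lower without coculture replicate 3 as well.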

How the data were processed

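Libraries were made by the authors with SMART-Seq HT from low-input RNA and sequenced paired-end on a NovaSeq. Reads were trimmed with fastp and quantified with kallisto against mm10, per the methods of the study and the submitters' processing notes. The deposited table holds raw counts per gene symbol, as whole numbers, for 13387 genes in 8 libraries. Genes and lists were chosen with earlier results of these data known. Here counts were tested with edgeR 4.0.16 (R 4.3.3, TMM factors, filterByExpr, robust quasi-likelihood F test, Benjamini-Hochberg adjustment over 11722 genes), with all 8 libraries and no covariate, since the batches of the authors' DESeq2 design are not named. DESeq2 1.42.0 was an alternative. CPM used TMM-adjusted library sizes, and levels per kb used the union of exons in GENCODE vM21. Groups of 4 libraries come from the labels. The study gives 4 mice per group and 5 pooled wells per library but the labels tie no library to a mouse, so p-values measure the spread between libraries. Same-numbered libraries correlated in their deviations from group means at r = 0.37, 0.02, 0.15 and 0.03. Differently numbered libraries gave r from -0.28 to 0.099. These values do not settle whether the numbers mark pairs. The main fit did not use them as pairs, and a fit with the replicate number as a block was an alternative. Promoter sequences are from RefSeq, GRCm38.p6, for 8 of the 10 genes (13 promoters), with none for Gclc and Gsr. Named in each list were the up to 3 called genes with the largest change, at least 10 CPM in a group and no overlap between groups, plus Slc7a5, Txn1, Prdx1, Txnip, G6pdx, Nfe2l2, Keap1, Bach1, Atf4, Nqo1 and Hmox1. Mgst1, Mgst2, Ncoa4 and Alox15 were named in addition, outside that rule, and were not part of the flagging below. Floors of 3 counts cover counting error only.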

Additional observations from a re-analysis of the deposited data

Results flagged for a closer look

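In 94 groups of 4 libraries (the 10 genes and the named pathway genes, in log2(CPM + 1)) 8 had 1 library set apart from the other 3 by Dixon's criterion, where chance would give about 4.7, and 5 of the 8 were in coculture replicate 3. Gclc was at 7.01 in coculture replicate 3, against 5.92 to 5.94 in the other cocultures. In the same library Gpx8 was at 5.50 (others 7.71 to 8.09), Msrb3 at 5.04 (7.05 to 7.45), Msra at 1.77 (4.65 to 5.11) and Alox5 at 1.36 (4.86 to 5.31). Gpx4 was at 6.51 in MK-alone replicate 1, against 7.30 to 7.42 in the other MK-alone libraries. In that library Slc25a39 was at 4.38 (others 5.31 to 5.49) and Gpx3 at 3.13 (3.84 to 3.96).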

How the results depend on the processing

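Of the 10 genes described, 2 were called higher and 3 lower, and these counts became 4 and 0 when libraries were scaled to MK and platelet markers and 1 and 2 when edgeR tested against a 2-fold change (glmTreat). Leaving out 1 library gave 1 to 3 called higher (1 without MK-alone replicate 4) and 3 called lower each time. Of the pathway genes, 43 were called higher and 12 lower, against 65 and 2 under marker scaling, 23 and 5 with glmTreat, and 33 to 54 and 9 to 20 with 1 library left out (20 without coculture replicate 3). Over all genes marker scaling gave 2842 higher and 325 lower calls against 1544 and 857. Fits with 1 library left out gave 1071 to 2530 higher and 539 to 1890 lower. As shares, glmTreat called 14.2% and 3.09% of the pathway genes against 6.98% and 2.58% of all genes tested. The replicate block called 22.2% and 6.17% against 9.35% and 4.89%. Marker scaling turned the sign of Gclc (1.64), Gclm (0.31), Nadk2 (0.11), Txn1 (1.62), G6pdx (1.11), Nfe2l2 (1.21) and Atf4 (1.13), all log2 fold changes before subtracting its shift of the median. With 1 library left out Gclc ranged from -0.48 to 0.070, Gpx1 from -0.28 to 1.15 and Txn1 from -0.40 to 0.091. With the replicate number as a block (replicate block) 36 pathway genes were called higher and 10 lower, 2 and 3 of the 10 genes, and 1669 genes in all against 2401, and Oplah, Msra, Mthfd1, Aifm2 and Alox5 were not called. DESeq2 called 3116 genes and gave no adjusted p for Oplah, Gsta3 and Selenow. Without coculture replicate 3, 4420 were called. Across 18 settings Srxn1 was called in 18, Slc7a11 and Gsr in 17, Gclm and Gss in 16, Gpx4 in 6 and Txnrd1 in 4. The cause of these changes was not tested. Depth limits Gss in MK-alone replicate 1 (35 counts) and Gsta3 and Gpx7 in MKs alone.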
